A study of Mus musculus with 6 samples.

Results

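Granzymes and perforin, the proteins with which cytotoxic T cells kill, were compared between 2 kinds of cultured mouse CD8+ T cells, probe set by probe set. A probe set is a group of short oligonucleotides on an array that together read 1 transcript. The members were the 10 genes Gzma, Gzmb, Gzmc, Gzmd, Gzme, Gzmf, Gzmg, Gzmk, Gzmm and Prf1, out of 17004 gene symbols named on the arrays, and every probe set naming one of them, alone or together with another symbol, was taken. This gave 14 probe sets, of which 12 were on the array type called SubA, 0 on SubB and 2 on SubC.

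The cells were from P14 mice, female and C57Bl/6 in background, whose transgenic T cell receptor recognises a viral glycoprotein peptide. Whole spleen and lymph node suspensions were given that peptide for 2 days and then a cytokine for 7 days. The cells grown in IL-15 and sorted for a high level of a surface marker are the central memory (CM) cells. Those grown in IL-2 and sorted for a low level are the effector/effector memory (E/EM) cells. Each kind was hybridised to 1 array of each type, 6 arrays in all, so cytokine and sort cannot be told apart, there was no replicate, and no p-value was computed. How many animals stood behind an array, and whether 1 RNA sample served all 3 arrays of a kind, the sources used here do not say. Both names are those of the labels and stand for cells made in culture, not taken from an immune response.

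Granzymes are serine proteases stored in the acidic granules of killer lymphocytes. Perforin, the product of Prf1, forms pores that let granzymes enter the target cell, where granzyme B starts death by cleaving caspases. Granzyme A cleaves after basic residues, granzyme K has a like specificity, and granzyme M cleaves after methionine or leucine. Mice also carry a row of closely related genes, Gzmc to Gzmg, beside Gzmb. In T cells both IL-2 and IL-15 signal through a shared receptor beta chain and STAT5, and granzyme transcription is known to draw on RUNX, AP-1, T-box and CREB factors.

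The sequences before the start sites show how alike the regions upstream of the members are. They lie outside the transcripts, so they say nothing about which transcripts a probe set reads. The 200 bases before the annotated start (RefSeq, mouse build GRCm38) were taken for all 10 members, 1 window per gene except Gzmm, which had 2. The 5 windows of Gzmc to Gzmg were alike, with identity in a global alignment between 67.6% and 94.0% over their 10 pairs (median 78.85%). The other 35 pairs among the 10 members lay between 42.8% and 51.4% (median 46.9%), and Gzmb, the next gene in the row, was among them. Gzmd and Gzme were the closest pair, at 94.0%. Capitals below mark matches, on either strand, to TGACGTCA (the cyclic AMP response element), TGANTCA (AP-1), ACCACA (RUNX core), GGAAGT (ETS) or TTCNNNGAA (STAT). No 2 matches overlapped. The related row comes first, read 5′ to 3′.
Gzmc (chr14:56234658-56234857, minus strand): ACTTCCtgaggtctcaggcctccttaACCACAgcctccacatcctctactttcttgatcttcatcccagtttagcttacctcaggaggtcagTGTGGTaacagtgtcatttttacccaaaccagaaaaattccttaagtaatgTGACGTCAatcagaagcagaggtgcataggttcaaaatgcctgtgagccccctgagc
Gzmd (chr14:56132594-56132793, minus strand): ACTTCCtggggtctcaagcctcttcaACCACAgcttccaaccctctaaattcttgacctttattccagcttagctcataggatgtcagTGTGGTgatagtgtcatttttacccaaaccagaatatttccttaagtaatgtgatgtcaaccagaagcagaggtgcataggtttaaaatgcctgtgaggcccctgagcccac
Gzme (chr14:56120626-56120825, minus strand): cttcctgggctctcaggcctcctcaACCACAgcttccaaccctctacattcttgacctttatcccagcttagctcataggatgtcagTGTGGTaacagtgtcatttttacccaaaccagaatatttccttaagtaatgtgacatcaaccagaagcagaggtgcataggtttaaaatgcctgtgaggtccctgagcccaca
Gzmf (chr14:56211408-56211607, minus strand): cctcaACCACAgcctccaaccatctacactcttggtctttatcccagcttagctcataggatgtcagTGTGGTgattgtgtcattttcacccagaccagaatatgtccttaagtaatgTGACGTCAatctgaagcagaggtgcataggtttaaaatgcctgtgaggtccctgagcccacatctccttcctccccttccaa
Gzmg (chr14:56159580-56159779, minus strand): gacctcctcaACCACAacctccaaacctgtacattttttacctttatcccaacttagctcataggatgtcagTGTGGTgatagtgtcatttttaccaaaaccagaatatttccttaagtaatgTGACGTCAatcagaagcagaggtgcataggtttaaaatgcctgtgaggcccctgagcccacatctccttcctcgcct
Gzmb is shown because it lies in the same row but had the smallest measured difference of those lower in CM cells, Gzma and Prf1 because they were lower in CM cells from other places in the genome, and Gzmm because it went the other way.
Gzmb (chr14:56262335-56262534, minus strand): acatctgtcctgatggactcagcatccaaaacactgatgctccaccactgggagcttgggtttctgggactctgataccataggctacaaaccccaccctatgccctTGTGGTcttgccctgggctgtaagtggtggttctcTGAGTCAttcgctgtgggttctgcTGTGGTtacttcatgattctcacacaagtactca
Gzma (chr13:113100982-113101181, minus strand): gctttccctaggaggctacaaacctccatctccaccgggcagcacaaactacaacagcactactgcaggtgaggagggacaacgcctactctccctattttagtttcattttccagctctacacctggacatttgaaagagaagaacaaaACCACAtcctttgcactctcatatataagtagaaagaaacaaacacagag
Prf1 (chr10:61297636-61297835, plus strand): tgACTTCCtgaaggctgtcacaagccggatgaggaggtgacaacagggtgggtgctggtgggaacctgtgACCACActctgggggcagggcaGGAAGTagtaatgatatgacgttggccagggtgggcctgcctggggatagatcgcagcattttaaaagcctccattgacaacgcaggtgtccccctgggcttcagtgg
Gzmm (chr10:79688820-79689019, plus strand): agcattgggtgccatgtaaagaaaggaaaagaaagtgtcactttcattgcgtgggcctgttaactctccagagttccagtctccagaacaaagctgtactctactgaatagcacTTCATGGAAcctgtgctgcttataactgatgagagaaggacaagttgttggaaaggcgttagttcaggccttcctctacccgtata

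**Figure D1:**
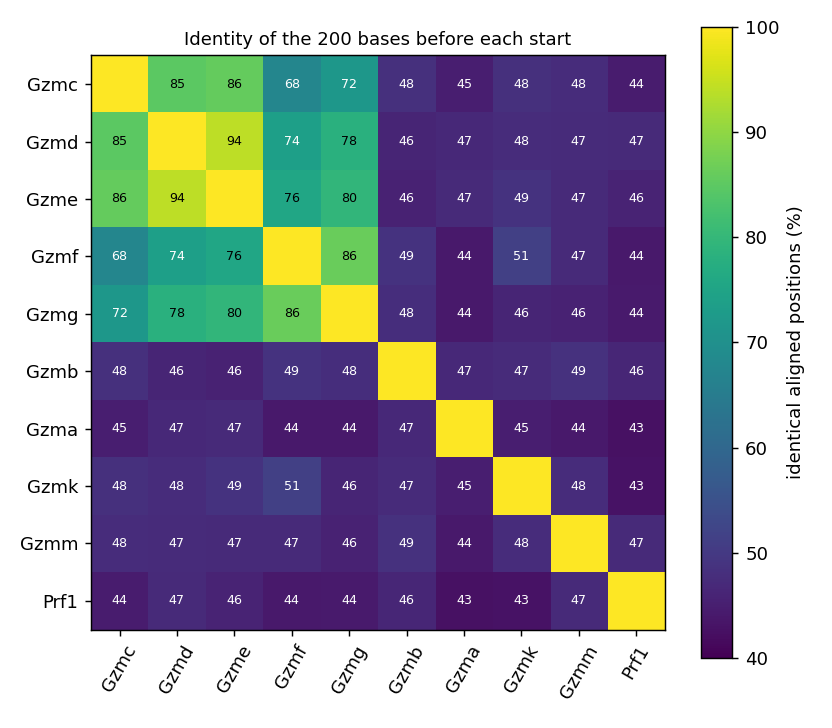
Share of identical aligned positions (%, colour and number) between the 200 bases before the start of each pair of members, rounded to whole percent. Gzmc to Gzmg form 1 block, from 67.6% to 94.0%, and all other pairs lie at 51.4% or lower.

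The RUNX core ACCACA was found in 8 of the 11 member windows, those of Gzma, Gzmb, Gzmc, Gzmd, Gzme, Gzmf, Gzmg and Prf1, against 11.2% of 32851 windows of the same length in the table. Since 5 of the 8 windows are those of the related row, these are not 8 separate cases. The full element TGACGTCA, held by 1.47% of all windows, was found in Gzmc, Gzmf and Gzmg only, from 57, 82 and 77 bases before the start. No such run stood in the windows of Gzmd and Gzme. TGANTCA was found in Gzmb alone (5.48% of all windows), GGAAGT in Gzmc, Gzmd, Gzmk and Prf1 (16.7%) and TTCNNNGAA in the first Gzmm window alone (5.49%). In Gzmc and Gzmd the GGAAGT match lies at the outer edge of the window. The edge cuts the like stretch of Gzme, and the Gzmf and Gzmg windows begin after that place. The lack of GGAAGT in those windows may thus come from the cut. A match is a run of letters and was not tested for binding, and the arrays do not bear on it.

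The deposited values are linear intensities, comparable between the arrays of 1 type, whose mean without the lowest and highest 2% was 500.1 to 500.3 on each array. A floor was set from 15 control probe sets for bacterial transcripts, as the 90th percentile of their signals on whichever array had the higher one. It was 31.28 on SubA and 194.34 on SubC. Where both signals were above the floor, the CM signal was divided by the E/EM signal and the log2 taken, so a negative ratio means a lower signal in CM cells. Where only 1 was above it, the ratio is a bound, at least N-fold, the higher signal over the floor. On SubA 66.9% of the probe sets were above the floor with CM cells and 69.1% with E/EM cells, and on SubC these shares were 47.1% and 47.3%. Probe sets of different genes bind with different strength, so differences are taken within a probe set, and an order of signals between probe sets is not an order of transcript levels. Over 4094 genes with at least 2 measured probe sets the median SD of the ratios within a gene was 0.32, a technical spread and the only error available.

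Both kinds of cells carried T cell transcripts, with summed signals over 13 SubA probe sets of 58760.2 in CM and 59537.3 in E/EM cells. Of 9 measured genes on that list 0 were at least 2-fold lower and 1, Cd4, was higher. Of all 10946 measured genes 5.61% were lower and 2.73% higher by that rule. Cd8a, a chain of the CD8 coreceptor, had signals of 5882.7 in CM and 5133.8 in E/EM cells. Cd3e, of the T cell receptor complex, had a ratio of -0.09 ± 0.03 (SD, 2 probe sets). Cd4, the coreceptor of helper T cells, had 131.7 in CM and 49.3 in E/EM cells, a ratio of 1.42.

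Of the 9 members with a probe set of their own, all but Gzmm were lower in CM cells by their brightest set, with measured differences from 2.51-fold for Gzmb to 63.2-fold for Gzmc and bounds up to at least 33.5-fold. Gzmm was higher in CM cells, and Gzme was read only by a set shared with Gzmd. In bulk RNA, fewer cells making a transcript and less of it per cell cannot be told apart. Of the 14 probe sets, 7 were above the floor on both arrays of their type, 5 on the E/EM array alone, 0 on the CM array alone and 2 on neither. On SubA 5 of 6 measured probe sets were at least 2-fold lower in CM cells, where 4.3% of all 7926 measured probe sets were, and 1 was at least 2-fold higher, where 2.31% were. On SubC the 1 measured probe set, of Gzmm, was at least 2-fold higher, as were 7.33% of 4677, and 0 were lower, against 8.06%. Over both array types that made 5 lower and 2 higher of 7, where 5.89% and 3.91% of all 20121 measured probe sets on the 3 array types were. Both higher sets were of Gzmm, and the lower ones included Gzmc and Gzmd, which may share signal. The 7 are thus not separate cases. Of the 5 bounded probe sets 4 were at least 2-fold lower, against 21.6% of 661 SubA probe sets above the floor on the E/EM array alone. Such sets can only come out lower, so this count describes size and not direction. All but the Gzmk set are of the related row Gzmc to Gzmg and may share signal, so they are not separate cases. The median ratio of the 7 measured probe sets was -3.47, against 0.0026 for all those measured.

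**Figure D2:**
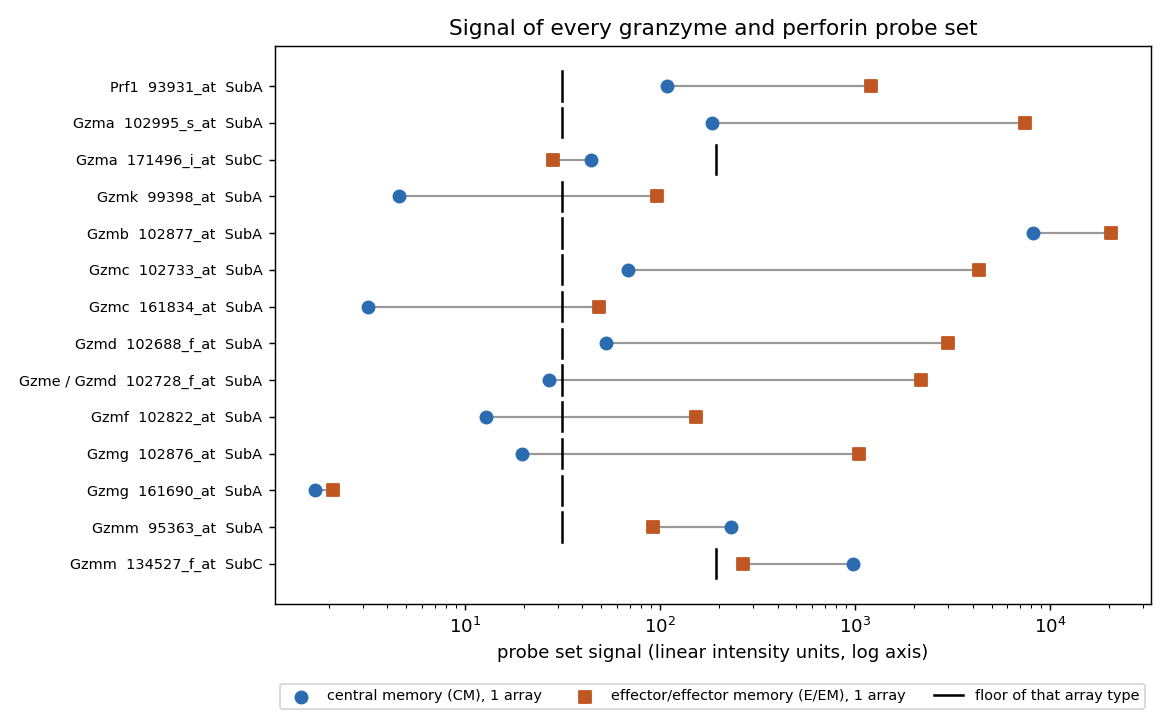
Signal of each of the 14 member probe sets (linear intensity, log axis) on the CM array (circle) and the E/EM array (square) of its type, with the floor as a black bar. Squares lie right of circles in 11 rows, and circles lie right of squares in 3, the 2 of Gzmm and the SubC probe set of Gzma, which is under the floor on both arrays.

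Prf1, the pore former, was read by 1 probe set with an ordinary ID (93931_at on SubA). Its signal was 108.3 in CM cells and 1200.4 in E/EM cells, an 11.1-fold lower level in CM cells (log2 ratio -3.47). The CM signal was 3.46 times the floor, so by that floor perforin transcript was weak but above background there. It lay under the higher floor of 239.94 used in the closing section. Prf1 had the 13th lowest ratio of the 7926 measured SubA probe sets.

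Gzma, which encodes the tryptase granzyme A, had signals of 183.8 in CM and 7452.1 in E/EM cells with 102995_s_at on SubA. The CM level was 40.5-fold lower (log2 ratio -5.34), the 3rd lowest of the SubA probe sets measured on both arrays. The suffix _s_ marks a probe set whose oligonucleotides can match several transcripts. The other Gzma probe set, 171496_i_at on SubC, had 44.1 and 28.4, both under the floor of 194.34, and so gave no ratio. Its suffix _i_ marks a set with fewer oligonucleotides than usual. The Gzma difference therefore rests on 1 probe set with a shared-probe ID.

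Gzmk, the gene next to Gzma on chromosome 13, had 4.6 in CM and 96.6 in E/EM cells (99398_at, SubA). The E/EM signal was 3.09 times the floor, so Gzmk was at least 3.09-fold lower in CM cells, and its CM signal was under the floor. Both granzymes of that chromosome were thus lower in CM cells, Gzma from a signal well above the floor and Gzmk from a weak one.

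Gzmb, the main caspase-cleaving granzyme of mouse killer cells, was far above the floor in both kinds. 102877_at on SubA had 8145.7 in CM and 20413.3 in E/EM cells, which is 260.4 and 652.6 times the floor. The CM level was 2.51-fold lower (log2 ratio -1.33), the 187th lowest of the SubA probe sets measured on both arrays. Among the 270 SubA probe sets with at least 5000 on both arrays, a limit chosen after the values were seen, only 2 were at least 2-fold lower, and none had a lower ratio than Gzmb. That limit leaves out sets that were bright in E/EM cells and weak in CM cells, such as Gzma with 7452.1 and 183.8. It therefore keeps strongly lower sets out and does not rank Gzmb among all bright ones. Among the 1889 with at least 1000 on both arrays, 24 (1.27%) were at least 2-fold lower and 8 lay below Gzmb. The highest signal on the SubA E/EM array was 26702.9. Whether so high a signal is compressed was not tested.

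Gzmc to Gzmg encode granzymes related to granzyme B whose substrates are less well known. In CM cells they lay near or under the floor. Gzmc had the lowest ratio of the 7926 SubA probe sets measured on both arrays, with 68.3 in CM and 4319.2 in E/EM cells (102733_at), 63.2-fold lower and a log2 ratio of -5.98. Its CM signal was 2.18 times the floor. A second Gzmc probe set, 161834_at, had 3.2 and 48.6, at least 1.55-fold lower. The direction of both sets was the same, but the second lay so near the floor that it bounds the difference only loosely.

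Gzmd had 53.0 in CM and 2987.2 in E/EM cells with 102688_f_at, 56.4-fold lower (log2 ratio -5.82), the 2nd lowest among those measured on both arrays. The suffix _f_ marks a set shared by a sequence family. The CM signal was only 1.69 times the floor. Gzme was named by no probe set of its own. It shared 102728_f_at with Gzmd, and that set had 27.1 in CM and 2164.4 in E/EM cells, at least 69.2-fold lower in CM cells. This bound lies past the measured ratios of Gzmc, Gzmd and Gzma. A difference in Gzme cannot be told apart from one in Gzmd here.

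Gzmg had 19.7 in CM and 1049.0 in E/EM cells (102876_at), at least 33.5-fold lower. Its second set, 161690_at, read 1.7 and 2.1 and was under the floor in both, so the sets of Gzmg disagree on whether the transcript was present in E/EM cells. Gzmf had 12.8 and 153.0 (102822_at), at least 4.89-fold lower. Neither had a CM signal above the floor. Each value of Gzmc to Gzmg may hold signal of the others, which cannot be separated without the oligonucleotide sequences, not used here. Gzmn, which lies between Gzmg and Gzmf, had no probe set of its own and was not a member. Whether its transcript adds to these signals was not tested.

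Gzmm, the methionine-specific granzyme and the only member higher in CM cells by a measured ratio, was read on both array types that hold members. On SubA 95363_at had 231.7 in CM and 92.1 in E/EM cells, 2.52-fold higher (log2 ratio 1.33), the 76th highest of 7926. On SubC 134527_f_at had 975.4 and 266.2, 3.66-fold higher (log2 ratio 1.87), the 42nd highest of 4677. The mean was 1.60 ± 0.38 (SD, 2 probe sets). The E/EM signals were 2.94 and 1.37 times their floors, so the SubC ratio is less certain in size. On both array types the CM signal was the higher one.

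**Figure D3:**
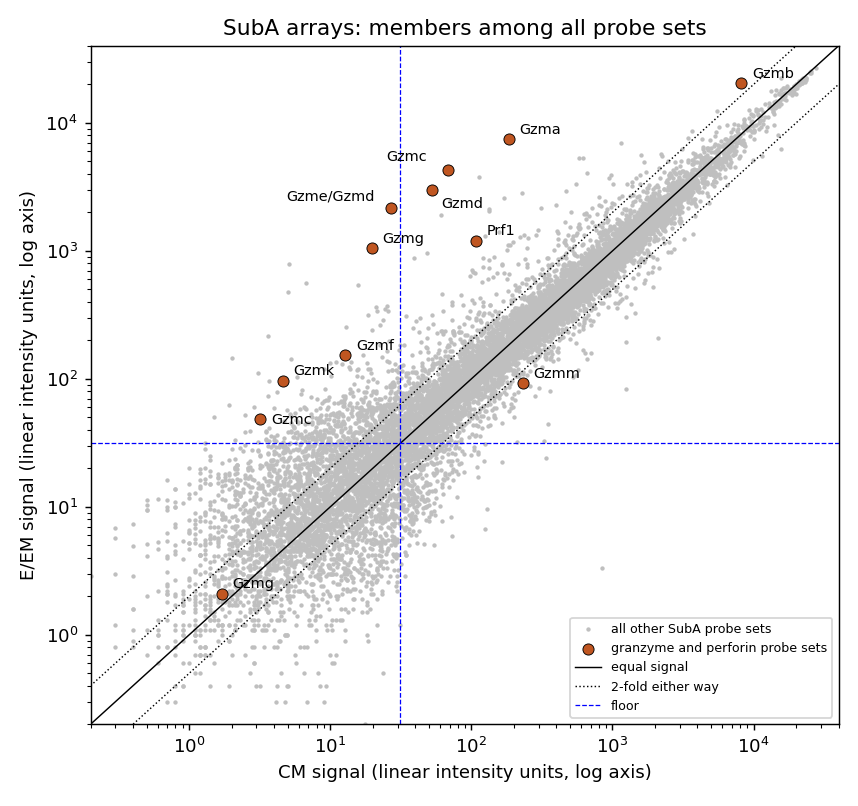
Signal of each SubA probe set on the CM array (x, log axis) against the E/EM array (y, log axis), with members as labelled orange points, 2-fold limits dotted and the floor of 31.28 dashed. Gzma, Gzmc, Gzmd, Gzme with Gzmd, Gzmg and Prf1 lie far above the diagonal, Gzmb lies near the bright end just past 2-fold, and Gzmm lies under the diagonal.

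By kind of probe set ID, the 9 sets with an ordinary ID included 4 measured on both arrays, with Gzmb, Gzmc and Prf1 at least 2-fold lower and Gzmm at least 2-fold higher. The 5 with a shared or reduced ID included 3 measured ones, with Gzma and Gzmd lower and Gzmm higher. The directions did not depend on the kind of ID for Gzmm, the only gene with a measured set of each kind.

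The probe sets whose SubA signals were most like those of a member, by distance of log2 signals over the 2 arrays, differed in how close they came. Gzmm had near matches, Tmem129 at a distance of 0.05 and Rnf2 at 0.07. Prf1 was nearest to Ccn3 (124.5 in CM, 1314.0 in E/EM cells, distance 0.24) and Myo10 (0.48). Gzma had no close match, the nearest being Adam8 at 1.22 and Emp1 at 1.44. Gzmb was nearest to the glycolytic genes Tpi1 at 0.73 and Aldoa at 0.73, but these had ratios of only -0.43 and -0.42. With 2 arrays and different probes this likeness describes signals only, not transcript levels.

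The neighbours of the members in the genome were read to see how far along the chromosome the differences ran. Of 41 protein-coding genes within 5 places of a member, 31 had a probe set of their own. The brightest set was above the floor on both arrays for 19, on 1 array for 5 and on neither for 7, and by measured ratios 1 gene was lower and 0 were higher under the 2-fold rule (5.61% and 2.73% of all 10946 measured genes). Beside the chromosome 14 row lie the mast cell proteases and cathepsin G. Mcpt2, Mcpt4, Mcpt8 and Ctsg were under the floor in both kinds of cells, with brightest signals of 25.8 in CM and 25.4 in E/EM cells for Mcpt8. On the other side of Gzmb, Mphosph8 had a mean ratio of -0.09 ± 0.80 (SD, 3 probe sets), so its sets disagreed.

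Next to Gzmk on chromosome 13, Esm1, which encodes a secreted proteoglycan, had 17.6 in CM and 1756.7 in E/EM cells and was at least 19.9-fold lower in CM cells. The following measured gene on that side, Snx18, had a ratio of -0.59 ± 0.28 (SD, 2 probe sets). Hspb3 and Arl15, further along, had -0.39 and -0.30. Dhx29, on the other side of Gzma, had 0.26 ± 0.67 (SD, 4 probe sets). On chromosome 10, Adamts14, next to Prf1, was at least 4.39-fold lower, with 67.7 and 387.2. Unc5b, 5 places from Prf1, had 461.5 and 930.6, a ratio of -1.01. The other measured neighbours of Prf1 went both ways. Pald1 had 0.31, Eif4ebp2 0.84 ± 0.75 (SD, 3 probe sets) and Sgpl1 0.28 ± 0.30 (SD, 2 probe sets). Tbata had -0.35 ± 0.30 and Lrrc20 -0.08 ± 0.41 (SD, 2 probe sets each). Bsg and Cdc34, on either side of Gzmm, had -0.36 and -0.61, opposite in sign to Gzmm. Further out, Shc2 (-0.85) and Rnf126 (-0.48) were also below 0. Madcam1 (0.94), Polrmt (0.61), Tpgs1 (0.33) and Hcn2 (0.15) had the sign of Gzmm.

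**Figure D4:**
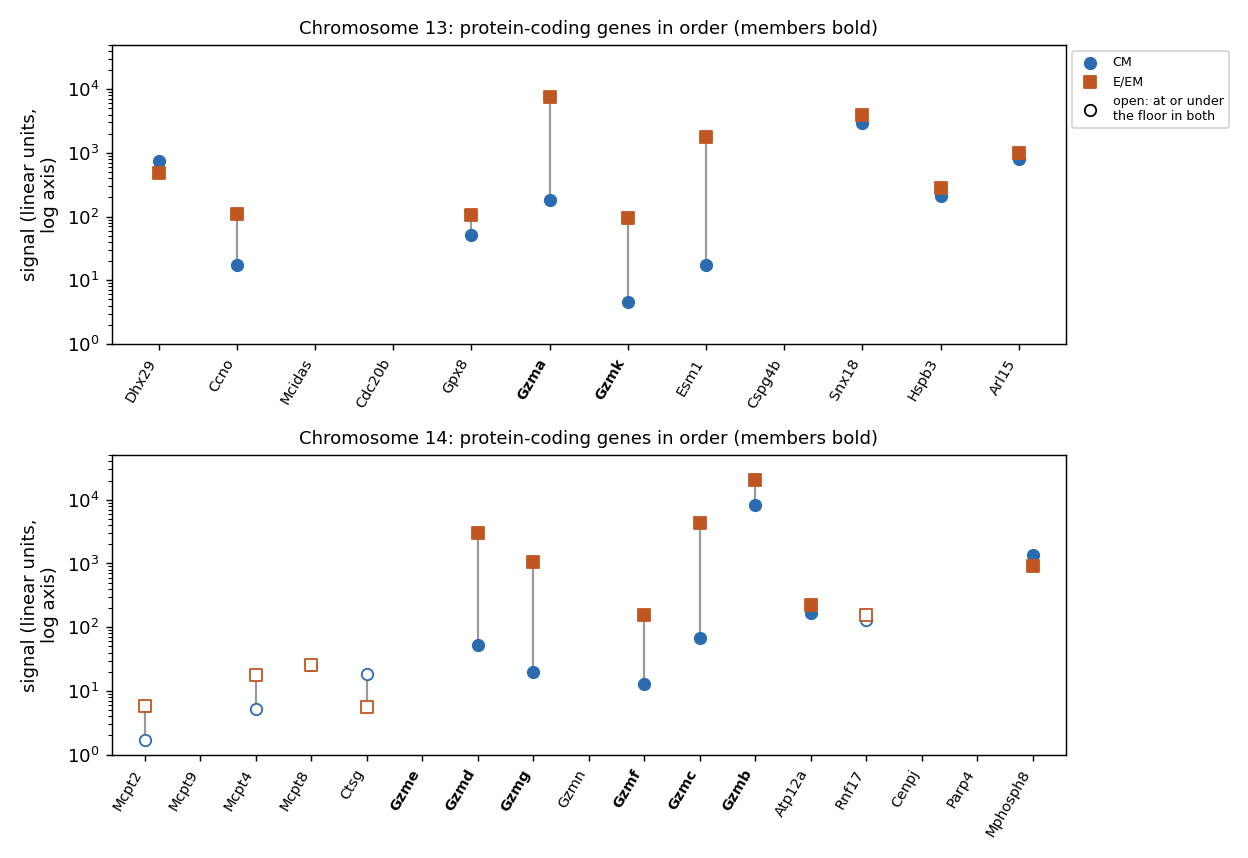
Signal of the brightest single-symbol probe set of each protein-coding gene in order along chromosomes 13 and 14 (y, linear intensity on a log axis), CM as circles and E/EM as squares, open where both are at or under the floor and absent where no single-symbol set exists. Gzma, Gzmk and Esm1 stand together on chromosome 13, and Gzmd to Gzmb on chromosome 14 are flanked on the left by proteases at or under the floor.

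The measured ratios of other genes of the granule pathway lay between -1.60 and 2.20. They were smaller in size than those of Gzma, Gzmc, Gzmd and Prf1, but Gzmb (-1.33) and Gzmm (1.60) lay within that range. Of 71 measured genes on 6 pathway lists, 7 (9.86%) were at least 2-fold lower in CM cells and 2 (2.82%) at least 2-fold higher, against 5.61% and 2.73% of all 10946 measured genes. Among 10 measured genes of granule maturation and storage 0 passed 2-fold, and their median was 0.15. Srgn, the proteoglycan serglycin that holds granzymes in the granule, had 692.1 in CM and 955.2 in E/EM cells, a ratio of -0.46. Ctsc, the peptidase that activates granzymes by removing their first residues, had 0.56 ± 0.69 (SD, 4 probe sets). Its measured sets with an ordinary ID had 0.53 and 0.77. Those with a shared-probe ID had 1.29 and, from signals of 75.2 and 96.9, -0.37, so the direction is not settled over all 4. Cst7, an inhibitor of that peptidase, had -0.51, the granule membrane protein gene Nkg7 had 0.56 ± 0.13 (SD, 3 probe sets), and Ctsl had 0.84.

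Among 18 measured genes of granule transport and fusion, 1 was lower and 1 higher by the 2-fold rule, against 5.61% and 2.73% of all measured genes. The median of the 18 was -0.10. Stx11, a syntaxin needed for granule release, had -1.34 ± 0.23 (SD, 2 probe sets), with 1613.7 in CM and 4575.4 in E/EM cells for its brighter set. Rab27a, the GTPase that docks granules, had -0.72 and its effector Sytl2 -0.76. Lyst, a regulator of granule size, had 2.20 ± 0.10 (SD, 2 probe sets) and so went the way of Gzmm.

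Of 5 measured serpins 1 was at least 2-fold lower, against 5.61% of all measured genes, and 4 were below 0. Serpinb6a had 523.0 in CM and 1318.1 in E/EM cells, a ratio of -1.33. Serpinb6b, whose product inhibits granzyme A, had -0.64, and Serpinb1a had -0.69. Serpinb9, the inhibitor of granzyme B that protects the killer cell itself, had -0.22 ± 0.39 (SD, 2 probe sets), a difference smaller than the spread of its probe sets. Killing routes outside the granule had a median of -0.21 over 6 genes. Fasl, the death ligand, had -0.30, Tnf -0.71 and Tnfsf10 (TRAIL) 0.67 ± 0.23 (SD, 3 probe sets). Lta counted as lower by its mean, but its sets, at 0.44 and -2.60, disagreed.

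Genes whose products granzymes are known to cleave, or that act beside those, were read as background. Of 14 measured, 0 were lower and 1 higher by the 2-fold rule, against 5.61% and 2.73% of all measured genes. Of the 14, 10 had ratios above 0, and the median was 0.35. Dffb, the nuclease that cuts DNA in dying cells, had 1.32 ± 0.36 (SD, 2 probe sets) and Bid, which encodes a death-inducing protein, had 0.59 ± 0.26 (SD, 2 probe sets). Igf2r, a receptor reported to take up granzyme B, had -0.85, and Anp32a, a granzyme A target complex member, had 0.66 ± 0.06 (SD, 2 probe sets).

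Among 18 measured transcription regulators with a known part in granzyme genes or effector programmes, 4 were lower and 0 higher by the 2-fold rule. Of all measured genes 5.61% were lower and 2.73% higher. The median of the 18 regulators was -0.03. Irf4 had 503.1 in CM and 1526.6 in E/EM cells, a ratio of -1.60. Runx3, a RUNX factor of cytotoxic T cells, had 111.8 and 316.9 (-1.50), its CM signal close to the SubB floor of 88.12. Prdm1 had -1.36 and Myb -1.10. Eomes, a T-box factor, had 0.75 ± 0.30 (SD, 2 probe sets), and Stat5a and Stat5b had 0.24 ± 0.02 and -0.05 ± 0.09 (SD, 2 probe sets each).

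**Figure D5:**
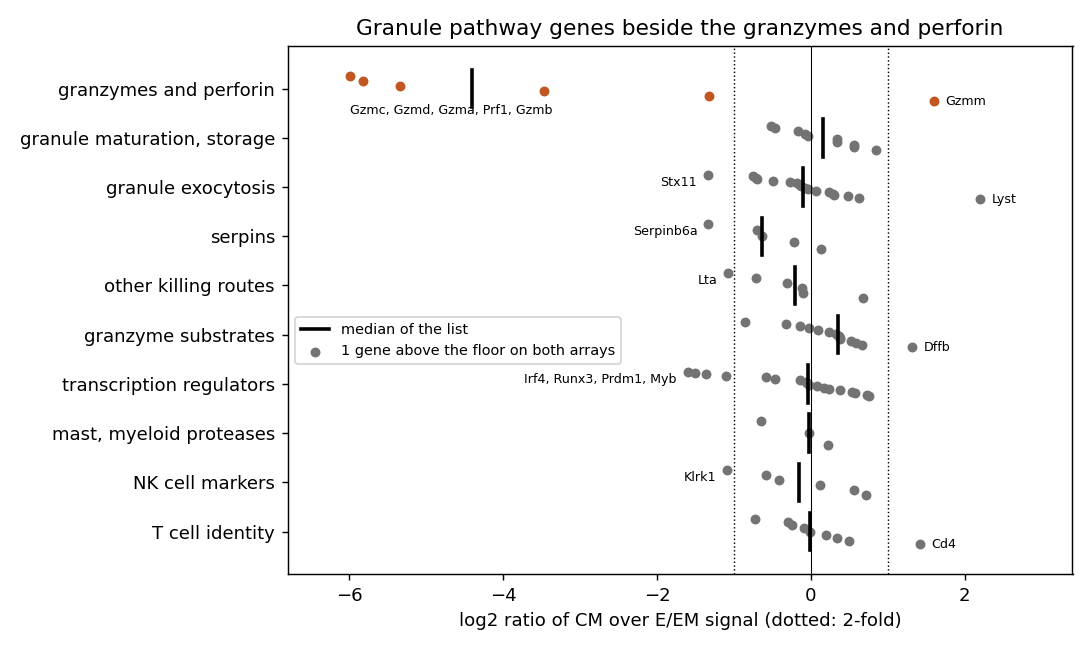
CM signal over E/EM signal as a log2 ratio (x) for each gene above the floor on both arrays, 1 row per gene list, with the list median as a black bar and 2-fold limits dotted. The granzymes and perforin reach -5.98, whereas the genes of all other lists lie between -1.60 (Irf4) and 2.20 (Lyst).

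Granzymes are also made by natural killer cells, and related proteases by mast and myeloid cells, so their markers were read beside the members. On SubA the 15 probe sets of natural killer markers, leaving out Nkg7, Klrk1 and Klrd1, which activated CD8+ T cells also express, summed to 537.0 in CM and 505.1 in E/EM cells, and 9 were under the floor on both arrays. Ncr1, which marks natural killer cells, had 1.6 and 17.2, both under the floor of 31.28, so it gave no ratio. The 2 genes of that list with only a bound went opposite ways. Klra7 was at least 2.20-fold higher in CM cells and Klra3 at least 1.15-fold lower. The 21 probe sets of mast cell and myeloid proteases summed to 593.2 and 777.2, with 13 under the floor on both arrays, among them those of Tpsab1 and Ctsg. Tpsb2, a mast cell tryptase, had 132.5 and 166.7 with its brighter set. By gene, 0 of 3 measured mast and myeloid protease genes passed 2-fold either way, where 5.61% of all measured genes were lower and 2.73% higher. Of 6 measured genes on the natural killer list 1 was lower and 0 higher. That 1 was Klrk1, with -1.09 ± 0.52 (SD, 3 probe sets), and Klrd1 had 0.72 and Tyrobp -0.58. The part of other cell types in the member differences beyond these sums was not tested.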

How the data were processed

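Total RNA of 2 kinds of cells was read on 3 array types, 1 array each. The authors deposited a table of linear intensities for each array type, used here without change. Their software and scaling were not given in the sources used here, and no detection calls were used. Samples were grouped by their titles. Symbols came from GEO's platform annotation. Single-symbol probe sets numbered 10855, 10603 and 7739 on SubA, SubB and SubC, several-symbol ones 396, 178 and 150, and unnamed ones 1237, 1696 and 4045. The probe set tables name no build, so gene order and promoters come from RefSeq (GRCm38), used for names, neighbours and sequence windows.

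Gene values are means over single-symbol probe sets above the floor on both arrays, and the 2-fold rule replaced a test. Calculations used Python 3.11.15, numpy 2.4.6, pandas 2.3.3 and Biopython 1.88 (global alignment, end gaps counted) and were tested on simulated data. The members and lists were chosen with earlier results of these data known. Named genes are the members, up to 4 genes per list by size of ratio, Cd8a, Cd3e, Cd4, Srgn, Ctsc and Serpinb9, bounds of at least 4-fold, measured neighbours, and 2 like probe sets for each of 4 members. Eomes, Stat5a, Stat5b, Ncr1, Klra3, Klra7, Tpsab1 and the unmeasured neighbours were added after their values were seen. The 11 alternatives are given in the closing section. A planned comparison of protein sequences was not run, as no protein sequences were used here. The number of arrays limits the precision.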

Additional observations from a re-analysis of the deposited data

How the results depend on the processing

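No member ratio changed sign under any of the 11 alternatives that could give it. Only quantile normalization, which gives both arrays the same distribution of signals, and centring on the median ratio can change the ratio of a probe set. The others only keep or drop probe sets or change how they are counted, so they could not change its sign. Over all settings that gave a value, the Gzma ratio lay between -5.36 and -5.31 and Gzmb between -1.35 and -1.33. Gzmd lay between -5.84 and -5.72, Prf1 between -3.49 and -3.42 and Gzmm between 1.33 and 1.87. Counts and medians moved more, because the floor and the choice of probe sets decide which are measured. A floor at the 60th percentile of every signal, 239.94 on SubA, left 1 of 14 member probe sets measured, Gzmb. By measured ratios 1 was thus at least 2-fold lower and 0 higher, and the median was -1.33. Another 6 sets were above that floor on the E/EM array alone, all 6 at least 2-fold lower in CM cells by bound. The SubC set of Gzmm was above it on the CM array alone. Leaving out shared IDs gave 3 lower and 1 higher with a median of -2.40, and 5 lower genes over the 9 lists, markers included, against 8. SubA alone gave 1 higher member, a median of -4.41 and 5 lower list genes. The 3-fold rule gave 1 higher member, 1 lower list gene and 1 higher against 3, and the doubled floor 1 higher member. The halved floor gave a median of -5.34, and adding bounded probe sets -2.88. With the 60th percentile floor 5 list genes were lower. No paired analysis was possible because each kind of cell had 1 array per type. All member differences lack a replicate check, and most CM signals lay within a few times the floor.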
